A study of Mus musculus with 8 samples.

Results

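The 8 genes described here belong to the dopamine system or mark the projection neurons of the striatum, and they were taken by symbol from the 19201 genes measured. They are Drd2 and Drd5, which encode dopamine receptors, Th, which encodes the rate-limiting enzyme of dopamine synthesis, Maoa and Maob, which encode the monoamine oxidases that break dopamine down, and Ppp1r1b, Adora2a and Pde10a, which are used with Drd2 as markers of striatal projection neurons. The genes were compared between wild-type and Mbd2-/- hippocampus to see whether Drd2 was lower alone or together with other striatal genes. Drd2 was among the genes already known from these libraries to be lower, so its direction is given as a description of the level and not as independent evidence.

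Hippocampal RNA was sequenced in 4 wild-type libraries, from mice that the labels give as C57BL/6, and in 4 Mbd2-/- libraries, from mice on a C57BL/6 background that lack Mbd2, a protein that binds methylated CpG sites. The mice were 10 to 12 weeks old, no treatment is given, the methods state that littermates were bred from heterozygous parents, and each library pooled both hippocampi of 2 mice. Ribosomal RNA was depleted and paired ends of 100 bases were read. The allele is a constitutive knockout, present in every cell, and exon 1 of Mbd2 is intact in the allele, so that reads on it remain.

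Dopamine acts through receptors of 2 classes. Receptors of the D1 class, to which Drd1 and Drd5 belong, raise cyclic AMP, and receptors of the D2 class, to which Drd2, Drd3 and Drd4 belong, lower it. In the striatum, Drd2 is found in the projection neurons of the indirect pathway together with Adora2a, an adenosine receptor that raises cyclic AMP. In the hippocampus, Drd2 is best known from the mossy cells of the dentate hilus and Drd5 from principal neurons, while dopamine itself reaches the tissue in axons of cells that lie elsewhere. A transcript of Th in hippocampal RNA can therefore be low although dopamine is present.

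Reads recovered from the deposited values summed to between 8087750 and 23790825 per library, and 1 read stood for between 0.531 and 1.59 normalized counts. A normalized count is the number of reads on a gene divided by the size factor of the library. Mbd2 itself was at 346 ± 34.4 normalized counts in wild-type and at 260 ± 54.3 in Mbd2-/- libraries (log2 fold change -0.43, limma adjusted p = 0.0174), the groups overlapped, and the gene was not called once wild-type replicate 3, Mbd2-/- replicate 1 or Mbd2-/- replicate 2 was left out, or with plain moderation, which is limma without its trend and robust options. The library of Mbd2-/- replicate 4 stood apart. The rank correlation across 14013 genes between transcript length and the deviation of a library from the mean of all 8 was 0.29 to 0.36 in the wild-type libraries, -0.46 to -0.36 in Mbd2-/- replicates 1 to 3 and 0.15 in Mbd2-/- replicate 4. Results are therefore also given without this library, or with the trend on length removed, where that changes a call among the genes named. Markers of other tissue moved as well. The summed level of 16 thalamus markers was 7466 to 7667 normalized counts in wild-type and 5182 to 5801 in Mbd2-/- libraries, and 13 of the 16 were called lower. The sum of 20 choroid plexus markers was 24938 to 26655 against 47942 to 54467, and all 20 were called higher.

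Of the 8 genes, 7 had a mean of at least 10 normalized counts and were tested with limma on log2(normalized count + 1), with Benjamini-Hochberg adjustment over all 14504 genes tested. Drd2 and Drd5 were lower in Mbd2-/- libraries, Ppp1r1b was higher, and Maoa, Maob, Adora2a and Pde10a did not pass an adjusted p of 0.05. For all genes tested, 22.0% were called, 10.0% as lower and 12.0% as higher, and the 2 lower and 1 higher of 7 are read against these shares. The libraries of the genotypes did not overlap for 5 of the 7 genes, against 23.6% of all genes tested. The median log2 fold change was -0.13 over the 7 genes and -9.1e-05 over all genes tested.

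**Figure D1:**
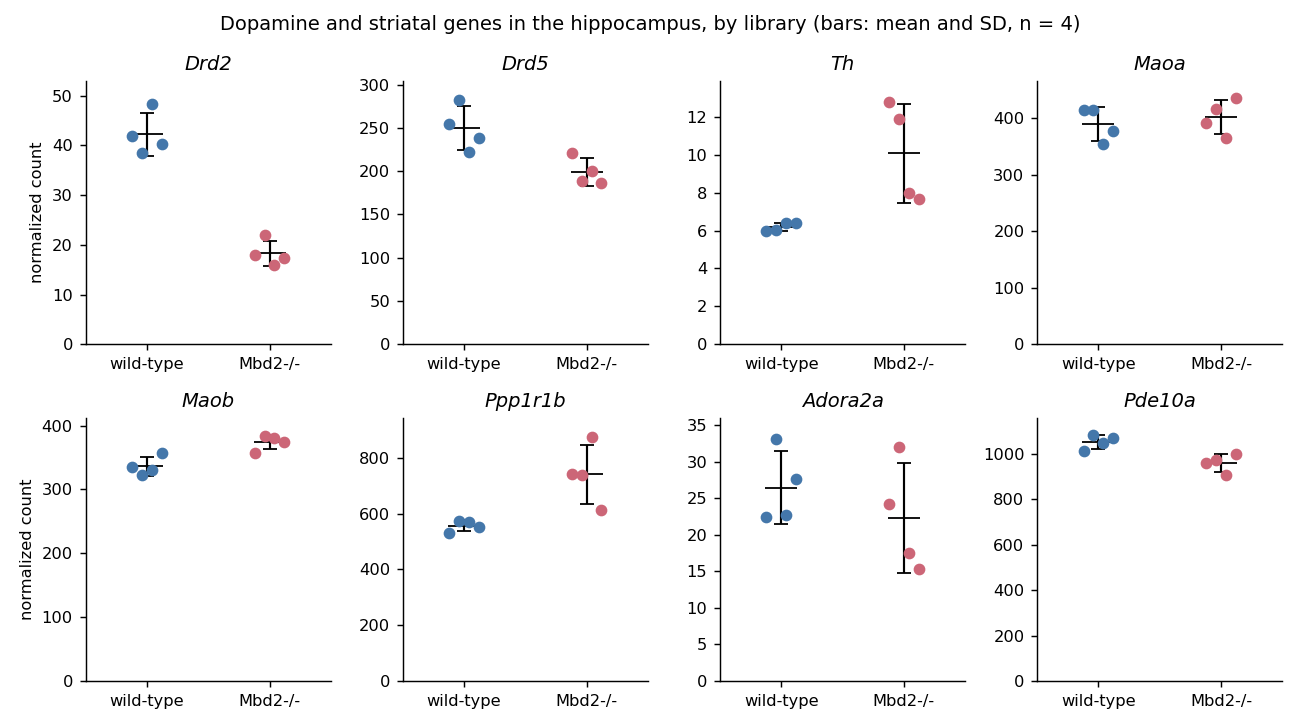
Normalized count (y axis, from 0) of the 8 genes in each of the 4 wild-type (blue) and 4 Mbd2-/- (red) libraries; horizontal bars give the mean and error bars the SD. Drd2 lies between 38.4 and 48.3 in wild-type and between 15.9 and 21.9 in Mbd2-/- libraries, whereas the libraries of Adora2a and Maoa overlap.

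The plot of counts by library shows that the genes differ widely in level. Per kilobase of the longest transcript, the wild-type level was 278 ± 10.0 normalized counts for Ppp1r1b, 139 ± 6.04 for Maob, 137 ± 4.05 for Pde10a, 93.5 ± 7.06 for Maoa, 89.0 ± 9.09 for Drd5, 16.6 ± 1.69 for Drd2, 10.5 ± 1.97 for Adora2a and 3.10 ± 0.107 for Th (SD, n = 4). In this order, Maob and Pde10a, and Maoa and Drd5, were closer to each other than their spread. Drd2 was at the 10.4th percentile of the genes tested and Ppp1r1b at the 81.0th, and these percentiles also rest on the level per kilobase.

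Drd2 is encoded on chromosome 9 from 49148732 to 49216282, on the plus strand (mm9, GENCODE vM1), and Drd5 on chromosome 5 from 38710748 to 38713549, on the plus strand. Both receptors were called lower, and Mbd2 binds methylated CpG sites, so the RefSeq promoter windows of these genes are shown with each CpG in capitals. A window runs from 250 bases before to 50 bases after a transcription start, and its coordinates are on GRCm38.p6 and not on the build of the deposited data, at chr9:49340153-49340452 for Drd2 and at chr5:38319259-38319558 for Drd5, both read on the plus strand.
Drd2: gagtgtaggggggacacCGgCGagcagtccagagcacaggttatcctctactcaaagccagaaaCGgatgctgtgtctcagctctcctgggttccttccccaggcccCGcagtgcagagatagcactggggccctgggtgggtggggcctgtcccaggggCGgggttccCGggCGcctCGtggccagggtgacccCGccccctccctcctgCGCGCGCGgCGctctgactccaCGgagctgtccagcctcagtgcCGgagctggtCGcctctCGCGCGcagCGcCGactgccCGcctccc
Drd5: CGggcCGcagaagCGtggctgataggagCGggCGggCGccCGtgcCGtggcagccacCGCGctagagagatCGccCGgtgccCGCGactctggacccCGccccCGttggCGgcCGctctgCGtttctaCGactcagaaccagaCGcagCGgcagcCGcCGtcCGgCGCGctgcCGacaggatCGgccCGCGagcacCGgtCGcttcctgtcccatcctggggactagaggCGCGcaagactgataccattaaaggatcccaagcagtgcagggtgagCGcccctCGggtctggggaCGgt
The dinucleotide CG was counted, which reads the same on both strands. The Drd2 window holds 23 CpGs and the Drd5 window 38, whereas the median of 32851 windows of this length was 7. At least as many were found in 21.5% of windows for Drd2 and in 4.95% for Drd5. Genes that were not called lower had CpGs too, with 15 in the window of Th, 14 in that of Maoa, and 23 and 5 in the windows of 2 starts of Pde10a. The count says nothing of whether the sites were methylated or bound.

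Drd2, the D2 receptor, was at 42.0, 38.4, 48.3 and 40.4 normalized counts in wild-type replicates 1 to 4 and at 17.9, 21.9, 15.9 and 17.3 in Mbd2-/- replicates 1 to 4. Every wild-type library was above every Mbd2-/- library, and the mean was 42.3 ± 4.30 in wild-type and 18.3 ± 2.59 in Mbd2-/- hippocampus (SD, n = 4). This is a fall of the mean by 56.8% and a log2 fold change of -1.17 ± 0.18 (SE), with a 95% interval from -1.56 to -0.79 (limma, adjusted p = 4.68e-04). The values rest on few reads, 28, 51, 53 and 76 in the wild-type and 14, 24, 10 and 18 in the Mbd2-/- libraries, or 208 against 66 in all. Of the 14504 genes tested, 19, Drd2 included, had a log2 fold change as low as that of Drd2 or lower. In bulk tissue, fewer cells that express a gene and less RNA per cell cannot be told apart.

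Drd5, the D1-class receptor with the highest level per kilobase of the dopamine receptors here, was at 255, 282, 222 and 238 normalized counts in wild-type replicates 1 to 4 and at 221, 188, 201 and 186 in Mbd2-/- replicates 1 to 4. The groups did not overlap, but the lowest wild-type and the highest Mbd2-/- libraries nearly met. The mean was 249 ± 25.5 in wild-type and 199 ± 15.9 in Mbd2-/- libraries (n = 4), with a log2 fold change of -0.32 ± 0.09 (SE; 95% interval -0.51 to -0.13; limma, adjusted p = 0.0188). The call was lost without wild-type replicate 1 (adjusted p = 0.0554), wild-type replicate 2 (0.0704) or Mbd2-/- replicate 2 (0.0631), with log2 fold changes of -0.31, -0.26 and -0.30. An antisense long noncoding RNA, Gm16766, overlaps Drd5 in the annotation, and it could not be told from Drd5 if reads were counted without strand, which the sources used here do not state.

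The other dopamine receptors were not called. Drd1, the main D1-class receptor of the striatum, was at 77.9, 78.2, 75.7 and 85.0 normalized counts in wild-type replicates 1 to 4 and at 62.6, 85.0, 63.8 and 65.3 in Mbd2-/- replicates 1 to 4. In Mbd2-/- libraries 1, 3 and 4 it was below every wild-type library, and in library 2 it was at the highest wild-type level. Its log2 fold change was -0.20, with a 95% interval from -0.47 to 0.07 (limma, adjusted p = 0.270). Drd3 and Drd4 were near the limit of detection, with 1 to 5 reads per library for each, and were not tested. All 3 dopamine receptors tested had a log2 fold change below 0, as did 7259 of all 14504 genes tested, and 2 of them were called lower, against 10.0% of all genes. This count includes Drd2, which was known to be lower.

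Th, which makes the precursor of dopamine and noradrenaline, was at 6.00, 6.02, 6.38 and 6.37 normalized counts in wild-type replicates 1 to 4 and at 12.8, 11.9, 7.97 and 7.69 in Mbd2-/- replicates 1 to 4. All Mbd2-/- libraries were above all wild-type libraries, although by little in Mbd2-/- replicates 3 and 4. The reads behind these values were 4, 8, 7 and 12 in wild-type and 10, 13, 5 and 8 in Mbd2-/- libraries, or 31 against 36 in all. The mean was 6.19 ± 0.214 against 10.1 ± 2.63 (SD, n = 4), and with an overall mean under 10 the gene was not among those tested. An exact two-sided permutation test of Th alone gave p = 0.0286, the smallest that 4 libraries against 4 allow, and when all 19201 genes were fitted with limma without a filter its log2 fold change was 0.59 (adjusted p = 0.201). A rise of Th was therefore not called. Th lies on chromosome 7 from 150078657 to 150117033, on the minus strand.

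The remaining genes of dopamine synthesis, storage and uptake showed 2 calls among 7 tested, both higher, where 12.0% of all genes tested were called higher, with a median log2 fold change of -0.08. Qdpr, which regenerates the tetrahydrobiopterin that Th needs, was at 2647 ± 49.9 in wild-type and 3408 ± 221 normalized counts in Mbd2-/- libraries (log2 fold change 0.36, limma adjusted p = 2.98e-04). Pts, an enzyme of tetrahydrobiopterin synthesis, was at 213 ± 7.14 and 252 ± 18.3 (log2 fold change 0.24, adjusted p = 0.0411), and its value fell to 0.03 with the length trend removed (adjusted p = 0.848). Qdpr was called in that fit and without each library in turn, whereas Pts was called without Mbd2-/- replicate 3 or 4 but lost its call without any of the 6 other libraries, and also by DESeq2, with no filter on low values and with the replicate block.

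The other 5 tested genes of this list did not pass the test. Ddc, which converts the product of Th to dopamine, was at 78.0 ± 9.22 in wild-type and 67.6 ± 6.99 in Mbd2-/- libraries (log2 fold change -0.20, adjusted p = 0.275). Slc18a2, the vesicular monoamine transporter, was at 89.0 ± 11.7 and 83.5 ± 14.4 (-0.10, adjusted p = 0.661). Gch1, the first enzyme of tetrahydrobiopterin synthesis, was at 26.5 ± 6.78 and 23.2 ± 5.21 normalized counts (-0.18, adjusted p = 0.602). Spr, the last enzyme of that path, and Pcbd1 had log2 fold changes of 0.19 and -0.08 (adjusted p = 0.175 and 0.729), and Spr was called higher without Mbd2-/- replicate 4 (0.29, adjusted p = 0.00146). Slc6a3, the dopamine transporter, had 1 to 9 reads per library, at 4.18 ± 2.57 and 3.00 ± 1.07 normalized counts, and was not tested. Of 17 midbrain dopamine neuron markers, Pitx3 and Foxa2 were not among the genes used here, En1, Foxa1, Lmx1b and Chrna6 were at 0 in at least 1 library, and the summed level of the list was 1856 to 1999 in wild-type and 1890 to 1972 in Mbd2-/- libraries. Of its 8 genes tested, 5 were called, against 22.0% of all genes tested, and the median log2 fold change was -0.15. En2 (log2 fold change 2.42) and Lmx1a (1.21) were called higher and Nr4a2 (-0.29), Ret (-0.53) and Slc10a4 (-1.18) lower. Slc10a4 lost its call without wild-type replicate 1, 3 or 4 or Mbd2-/- replicate 1 and by DESeq2. Which cells these transcripts came from was not tested. The noradrenergic markers measured summed to 4.78 to 12.0 in wild-type and 8.94 to 11.2 in Mbd2-/- libraries, with Slc6a2 and Phox2a at 0 in at least 1 library and Dbh the highest of them. The part of such cells in the values of Th was not tested.

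Maoa and Maob, which lie tail to tail on the X chromosome with 21464 bases between them, break down dopamine and other monoamines at the mitochondrial outer membrane. Maoa (X from 16196824 to 16264944, plus strand) was at 414, 414, 354 and 378 normalized counts in wild-type replicates 1 to 4 and at 392, 417, 365 and 435 in Mbd2-/- replicates 1 to 4. The groups overlapped, with a log2 fold change of 0.05 and a 95% interval from -0.12 to 0.21 (limma, adjusted p = 0.708). Maob (X from 16286408 to 16394492, minus strand) was at 336, 322, 331 and 356 in wild-type and at 358, 383, 381 and 375 normalized counts in Mbd2-/- replicates 1 to 4. Its lowest Mbd2-/- library was just above its highest wild-type library, and the log2 fold change was 0.15 ± 0.07 (SE; 95% interval 0.01 to 0.29), which did not pass the test over all genes (adjusted p = 0.108). Maob was not called under any of the 11 other settings or without any library. Xist, the RNA of the inactive X chromosome of females, was between 0 and 5.77 normalized counts in the 8 libraries, and the Y-linked Ddx3y between 469 and 939, the labels give no sex, and the methods describe hippocampi of both sexes in balanced numbers. Such low levels of Xist in every library do not match that description, and the sex of the mice was not settled here.

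Of 4 genes of dopamine breakdown, Maoa and Maob among them, 1 was called higher, which is read against the 12.0% of all genes, and all 4 had a log2 fold change above 0, with a median of 0.14. Aldh2, a mitochondrial aldehyde dehydrogenase that acts after the monoamine oxidases, was at 978 ± 59.0 in wild-type and 1215 ± 105 normalized counts in Mbd2-/- libraries (log2 fold change 0.31, limma adjusted p = 0.00455).

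Ppp1r1b encodes DARPP-32, an inhibitor of protein phosphatase 1 that is switched on by D1-class signalling and is abundant in striatal projection neurons. It was at 531, 574, 571 and 552 normalized counts in wild-type replicates 1 to 4 and at 741, 737, 873 and 612 in Mbd2-/- replicates 1 to 4. All Mbd2-/- libraries were above all wild-type libraries, with Mbd2-/- replicate 4 closest to them. The mean rose from 557 ± 20.0 to 741 ± 107 (SD, n = 4), a log2 fold change of 0.40 ± 0.08 (SE; 95% interval 0.22 to 0.58; limma, adjusted p = 0.00369). Ppp1r1b lies on chromosome 11 from 98209718 to 98219110, on the plus strand. An antisense long noncoding RNA that overlaps it, 1700003D09Rik, was at 4.83 ± 0.803 and 5.75 ± 4.60 normalized counts, and Stard3, which lies 572 bases away, at 318 ± 36.4 and 321 ± 31.3 (log2 fold change 0.02, adjusted p = 0.918).

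Adora2a, the receptor that is found with Drd2 in indirect pathway neurons, was low in all libraries. It was at 22.5, 33.1, 22.8 and 27.6 normalized counts in wild-type replicates 1 to 4 and at 24.3, 32.0, 17.5 and 15.4 in Mbd2-/- replicates 1 to 4, on 11 to 52 reads per library. The groups overlapped, with Mbd2-/- replicates 3 and 4 below all wild-type libraries and replicates 1 and 2 among them. The log2 fold change was -0.28 ± 0.24 (SE), with a 95% interval from -0.78 to 0.23 (limma, adjusted p = 0.434). At this depth the interval still holds a fall of up to 0.78 on the log2 scale and also a rise. Adora2a lies on chromosome 10 from 74779688 to 74797533, on the plus strand, and its neighbour Specc1l had a log2 fold change of -0.00.

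Pde10a, a phosphodiesterase of cyclic AMP and cyclic GMP that is enriched in striatal projection neurons, was at 1012, 1084, 1050 and 1069 normalized counts in wild-type replicates 1 to 4 and at 962, 973, 909 and 1001 in Mbd2-/- replicates 1 to 4. The groups did not overlap, but Mbd2-/- replicate 4 was only just below wild-type replicate 1. The log2 fold change was -0.13 ± 0.05 (SE; 95% interval -0.25 to -0.02) and did not pass the test over all genes (limma, adjusted p = 0.0914). It passed without Mbd2-/- replicate 4, at -0.15 (adjusted p = 0.0228), and it was -0.01 with the trend on transcript length removed (adjusted p = 0.940). The longest Pde10a transcript, at 7717 bases, is the longest among the 8 genes. Pde10a lies on chromosome 17 from 8718237 to 9179513, on the plus strand, where 3 antisense pseudogenes overlap it.

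**Figure D2:**
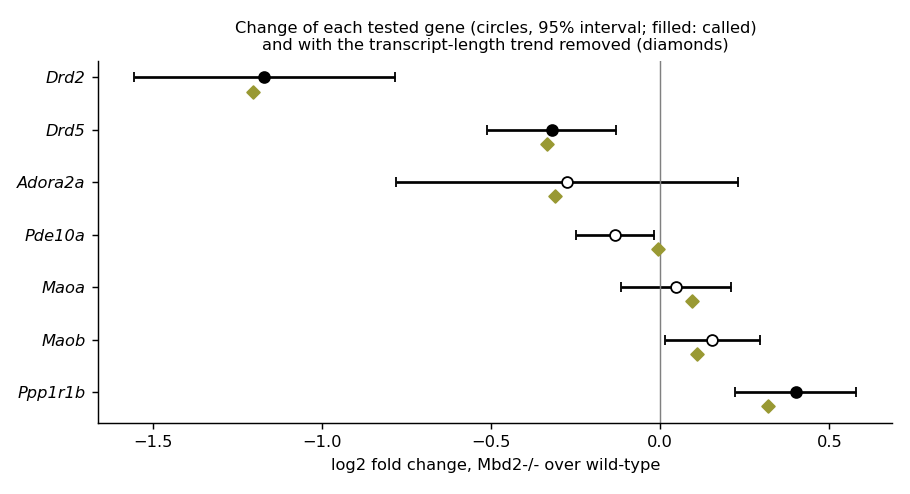
Log2 fold change of Mbd2-/- over wild-type (x axis) for the 7 tested genes, with the unadjusted 95% interval; filled circles passed an adjusted p of 0.05, and diamonds give the value with the transcript-length trend removed. Drd2 lies at -1.17, apart from the other genes, which lie between -0.32 and 0.40, and the diamond of Pde10a lies at -0.01.

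The plot of changes sets the 7 tested genes side by side. The circle of Drd2 and its whole interval lie below the circles of Drd5, Adora2a and Pde10a, although the lower end of the Adora2a interval, at -0.78, comes close to the upper end of the Drd2 interval, at -0.79. The log2 fold change of Drd2 was between -1.20 and -1.02 under 11 other settings and between -1.26 and -1.11 when each library was left out, and it was called in all of them. That of Ppp1r1b was between 0.32 and 0.40 and between 0.32 and 0.49, and it was also called in all.

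The change of Drd2 was set against that of the other striatal genes within libraries, as the log2 ratio of Drd2 to each of the 3 other markers. The log2 ratio of Drd2 to Adora2a was 0.87, 0.21, 1.05 and 0.53 in wild-type replicates 1 to 4 and -0.42, -0.52, -0.13 and 0.16 in Mbd2-/- replicates 1 to 4. Every wild-type library had the higher ratio, although wild-type replicate 2 and Mbd2-/- replicate 4 were 0.21 and 0.16. The mean ratio was lower in Mbd2-/- libraries by 0.89 on the log2 scale for Adora2a, by 1.57 for Ppp1r1b and by 1.04 for Pde10a. The groups did not overlap in any of the 3 comparisons, and each had p = 0.0286 in the exact two-sided permutation test, the smallest that 4 against 4 allow, which is also the Benjamini-Hochberg adjusted value over the 3. The ratios contain the fall of Drd2, which was known beforehand and separates the groups by itself, so the separation against the higher Ppp1r1b and against Pde10a was fixed by it and these p-values are no independent evidence. For Adora2a, p rose to 0.0571 without wild-type replicate 1 or 3 or without any one of the 4 Mbd2-/- libraries, and 0.0286 is the smallest that 3 against 4 allow.

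**Figure D3:**
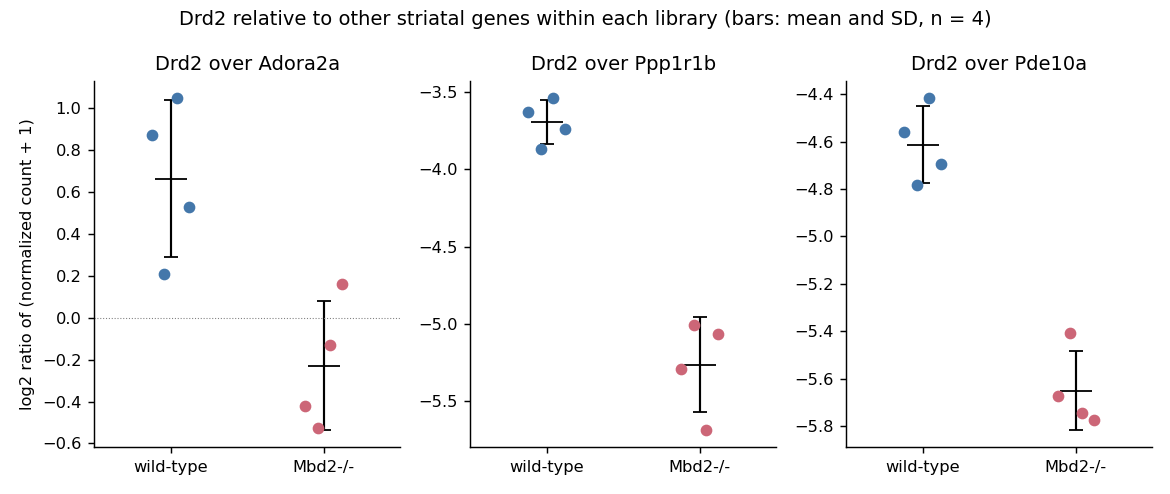
Log2 ratio of Drd2 to Adora2a, Ppp1r1b and Pde10a (y axes, each with its own range) in each wild-type (blue) and Mbd2-/- (red) library, computed on normalized count + 1; bars give the mean and SD. The mean ratio is lower in Mbd2-/- libraries by 0.89, 1.57 and 1.04, and the gap between the groups is narrowest for Adora2a.

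In the plot of ratios, the SD was 0.37 in wild-type and 0.31 in Mbd2-/- libraries for Adora2a, 0.14 and 0.31 for Ppp1r1b and 0.16 and 0.17 for Pde10a. For Ppp1r1b, where the 2 genes moved in opposite directions, the ratio was -3.87 to -3.54 in wild-type and -5.69 to -5.01 in Mbd2-/- libraries.

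A wider list of 27 striatal projection neuron markers, which includes Drd2, Ppp1r1b, Adora2a and Pde10a, moved in both directions. Of the 25 tested, 6 were called lower, against 10.0% of all genes tested, and 3 higher, against 12.0%, with a median log2 fold change of -0.13. Without these 4 genes, 5 were called lower, 2 higher and 14 neither of the 21 tested, also with a median of -0.13. The summed level of the list was 17546 to 17716 in wild-type and 16121 to 16661 normalized counts in Mbd2-/- libraries. The most abundant markers per kilobase were Ptpn5, Pde1b and Rasd2, of which Ptpn5, a tyrosine phosphatase enriched in striatum, was called lower (log2 fold change -0.19, limma adjusted p = 0.0349) and Pde1b (-0.07) and Rasd2 (-0.05) were not called.

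After Drd2, the largest fall among the called markers was that of Gpr52, an orphan receptor that is found with Drd2 in striatal neurons. Gpr52 was at 25.3 ± 4.11 in wild-type and 13.7 ± 3.17 normalized counts in Mbd2-/- libraries (log2 fold change -0.86, limma adjusted p = 0.0156). Syndig1l (-0.41, adjusted p = 0.0244), Gnal (-0.29, adjusted p = 0.00107) and Foxp1, a transcription factor (-0.26, adjusted p = 0.0114), were also lower. Gnal encodes the G protein through which Drd1 and Adora2a raise cyclic AMP in the striatum. The call of Gpr52 was lost without wild-type replicate 1, that of Syndig1l without wild-type replicate 3 or 4 or Mbd2-/- replicate 1, and that of Ptpn5 without any one of 6 libraries, all but Mbd2-/- replicates 3 and 4. With the length trend removed, a fit that lacks Gpr52 as it had no matched length, 4 markers were called lower and 2 higher, and Foxp1 was at -0.14 (adjusted p = 0.0707).

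The markers called higher, besides Ppp1r1b, were 2 neuropeptide genes that mark the direct pathway in the striatum. The tissue here was hippocampus, and which cells carried the markers of this list was not tested. Pdyn, which encodes dynorphin, was at 202 ± 13.7 and 261 ± 22.7 normalized counts (log2 fold change 0.37, limma adjusted p = 0.00626), and Tac1, which encodes substance P, at 56.4 ± 8.71 and 77.5 ± 6.31 (0.46, adjusted p = 0.0246). Penk, the enkephalin gene of the indirect pathway, was at 313 ± 17.7 and 326 ± 30.4 (0.06, adjusted p = 0.650). Tac1 was not called with the length trend removed (0.25, adjusted p = 0.210), by DESeq2, or without wild-type replicate 1 or 3 or Mbd2-/- replicate 1 or 2. Isl1, a transcription factor of direct pathway neurons, had a mean under 10 normalized counts and was not among the genes tested, with 9, 21, 19 and 22 reads in wild-type and 3, 4, 1 and 3 in Mbd2-/- libraries, at 14.6 ± 2.49 against 2.99 ± 1.02 normalized counts without overlap. When all 19201 genes were fitted with limma without a filter, Isl1 was called lower, at -1.99 (adjusted p = 6.85e-04), a lower value than that of Drd2. Isl1 was singled out after its values were seen.

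**Figure D4:**
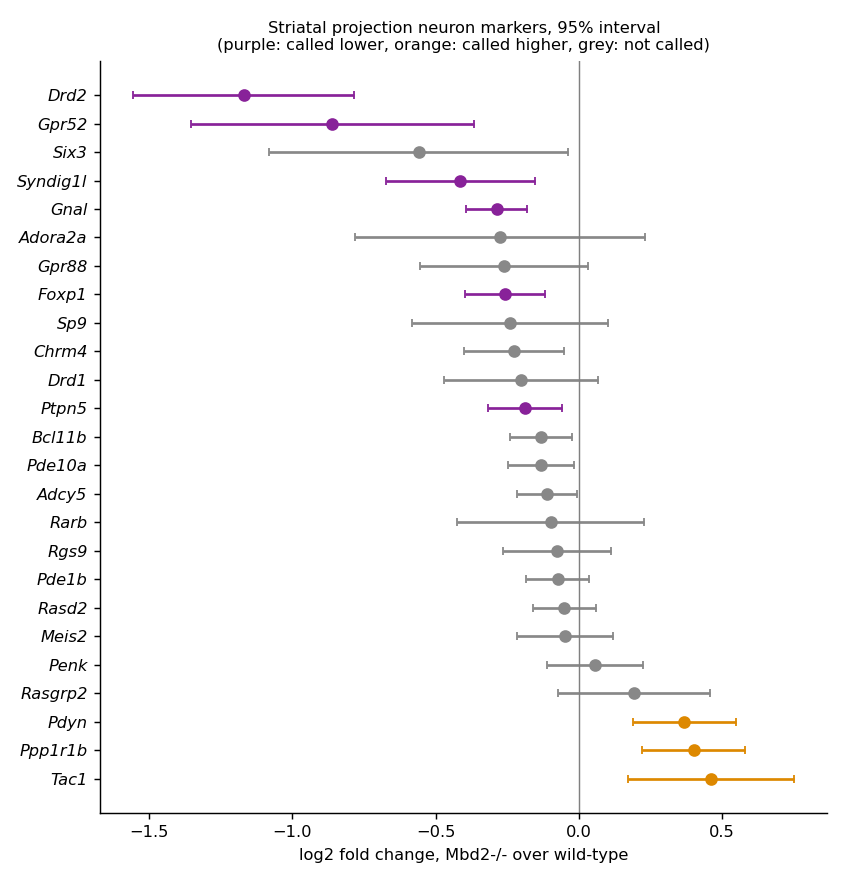
Log2 fold change of Mbd2-/- over wild-type (x axis) of the 25 tested striatal projection neuron markers in order of size, with the unadjusted 95% interval; purple genes were called lower, orange genes higher and grey genes neither. Drd2 and Gpr52 lie lowest, at -1.17 and -0.86, and Pdyn, Ppp1r1b and Tac1 highest, at 0.37 to 0.46.

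In the plot of striatal markers, Drd2 had the lowest value of those tested, and other genes were lower too, while its partner in the indirect pathway, Adora2a, was not called and Penk was level. The count of markers called lower was between 4 and 9 when each library was left out, and it was 3 with plain moderation, where Ptpn5, Foxp1 and Syndig1l were not called.

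Of 27 genes that carry the signal of the dopamine receptors, all tested, 5 were called higher and 2 lower, against 12.0% and 10.0% of all genes tested, with a median log2 fold change of 0.02. Higher were Gng7 (0.36, limma adjusted p = 1.53e-04), Gnas (0.17, adjusted p = 0.0231), Gnai2 (0.30, adjusted p = 0.0123), Ppp1ca (0.30, adjusted p = 0.00418) and Ppp1r1b. Gng7 forms the striatal G protein together with Gnal. Ppp1ca is a catalytic subunit of the phosphatase that DARPP-32 inhibits, and it was at 0.14 with the length trend removed (adjusted p = 0.0665). Lower were Gnal and Prkar2a, a regulatory subunit of protein kinase A (-0.22, adjusted p = 0.0171). Gnas lost its call without any one library other than Mbd2-/- replicate 4, and Gnas and Gnai2 lost it with plain moderation. Without Mbd2-/- replicate 4 the counts were 8 higher and 8 lower, and without wild-type replicate 2 or 3 only Gnal was called lower.

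Of 16 phosphodiesterases tested, 3 were called, or no larger a share than the 22.0% of all genes. All 3 were lower (10.0% of all genes), Pde1a (-0.20, limma adjusted p = 0.0279), Pde4a (-0.19, adjusted p = 0.0136) and Pde4d (-0.20, adjusted p = 0.0221), and the median log2 fold change was -0.08. With the trend on transcript length removed, Pde1a (-0.15, adjusted p = 0.0686) and Pde4a (-0.13, adjusted p = 0.0963) were no longer called, and Pde4d had no matched length. The count was 1 without wild-type replicate 4 or Mbd2-/- replicate 1, each time Pde4a, and 5 without Mbd2-/- replicate 4, Pde10a among them. Pde4a itself lost its call without wild-type replicate 1. Pde1a lost its call without 6 of the 8 libraries in turn, all but wild-type replicate 1 and Mbd2-/- replicate 4, and with plain moderation Pde4a alone was called.

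Of 9 genes of adenosine receptors and turnover tested, 2 were called, both higher, which is near the 22.0% called among all genes, with a median of -0.11. Adk, which removes adenosine by phosphorylation, was at 587 ± 14.7 and 736 ± 28.0 normalized counts (log2 fold change 0.33, limma adjusted p = 0.00116), and Adora2b, the low-affinity adenosine receptor, at 54.6 ± 10.6 and 81.1 ± 15.5 (0.56, adjusted p = 0.0254). With the length trend removed, Adora2b was at 0.46 (adjusted p = 0.0571), and its call was lost without wild-type replicate 1 or 2 or Mbd2-/- replicate 1, 2 or 3 and with plain moderation. Adora1, the main adenosine receptor of the hippocampus, was not called (-0.12, adjusted p = 0.0929).

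**Figure D5:**
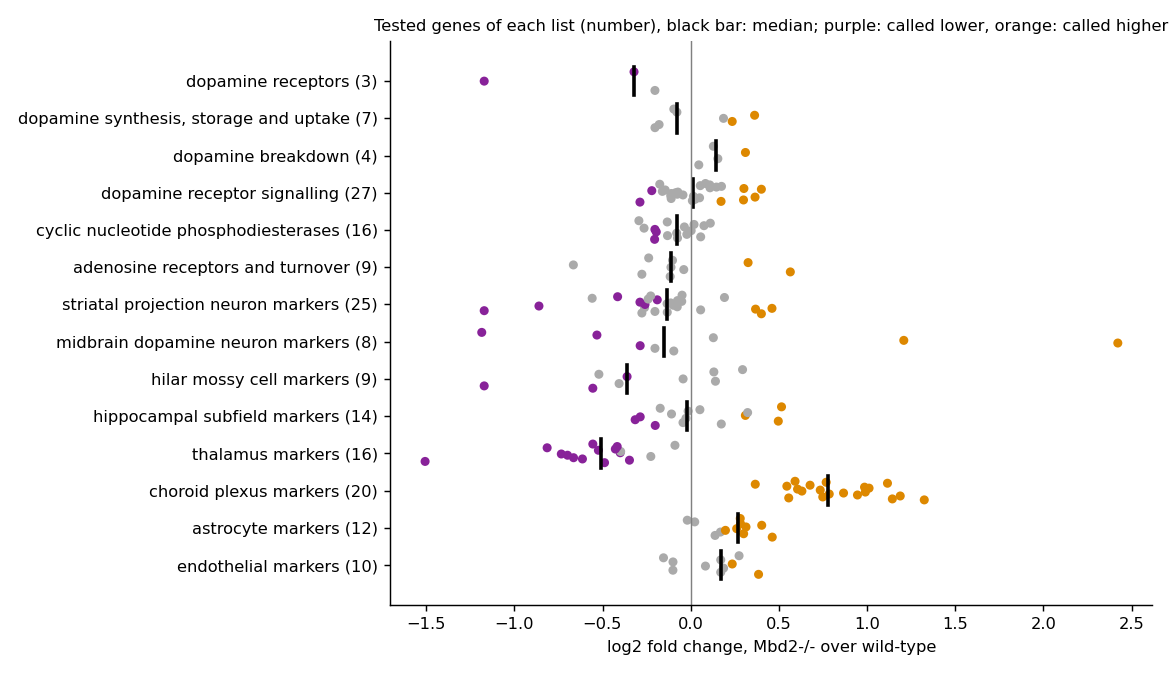
Log2 fold change of Mbd2-/- over wild-type (x axis) of the tested genes of each list, with their number in brackets; each point is a gene, purple where called lower and orange where called higher, and black bars give the median. The dopamine and striatal lists have medians between -0.32 and 0.14, the thalamus list lies at -0.51 and the choroid plexus list at 0.78.

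The plot of lists places these genes beside markers of the cells and regions that the dissected tissue may hold. Hilar mossy cells are the hippocampal neurons in which Drd2 is a known marker, and of 9 of their markers tested 3 were called, all lower, against 10.0% called lower among all genes, with a median log2 fold change of -0.36. Apart from Drd2 these were Calb2, which encodes calretinin, at 557 ± 35.1 and 380 ± 45.0 normalized counts (-0.56, limma adjusted p = 3.13e-04), and Sv2c, a synaptic vesicle protein, at 353 ± 15.2 and 275 ± 29.4 (-0.36, adjusted p = 0.00555). Ociad2, the marker with the highest level per kilobase, had a log2 fold change of 0.13 (adjusted p = 0.105) and was called higher without Mbd2-/- replicate 4, and 3 of the 9 had a log2 fold change above 0. Tm4sf1 had the highest (0.29, adjusted p = 0.0602), and it was called higher by edgeR and limma-voom and without wild-type replicate 1, Mbd2-/- replicate 1 or Mbd2-/- replicate 4. The summed level of the list was 2297 to 2334 in wild-type and 2081 to 2302 in Mbd2-/- libraries, which overlap. Calb2 is also a marker of midline thalamus. Markers of hippocampal subfields showed 3 called higher and 3 lower of 14, against 12.0% and 10.0% of all genes, with a median of -0.02. C1ql2 and Bok had the highest levels per kilobase. C1ql2 was not called (0.17, adjusted p = 0.127), except without Mbd2-/- replicate 4 (0.27, adjusted p = 2.00e-04), where 5 markers were called higher. Bok (0.51), Tdo2 (0.50) and Spink8 (0.31) were called higher and Wfs1 (-0.31), Fibcd1 (-0.29) and Prox1 (-0.20) lower, of which Prox1 and Spink8 each lost the call without at least 3 of the 8 libraries in turn and with the length trend removed.

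Among thalamus markers, Calb2 and Prkcd had the highest levels per kilobase, and Slc17a6 (-0.66, limma adjusted p = 1.51e-05), Prkcd (-0.61, adjusted p = 1.65e-05), Zic1 (-0.70, adjusted p = 3.46e-05) and Amotl1 (-0.43, adjusted p = 2.15e-04) had the smallest p. Thalamus markers and Drd2 were both lower in Mbd2-/- libraries, and the part of thalamus tissue in the Drd2 result was not tested. The choroid plexus markers Ttr (1.32) and Enpp2 (0.61) had the highest levels of their list. Against 12.0% called higher among all genes, 8 of 12 astrocyte markers were called, all higher, with a median of 0.27, among them Gfap (0.46) and Slc1a3 (0.30), and 2 of 10 endothelial markers were called higher, Cldn5 (0.38) and Slco1a4 (0.24), the second of which was lost without wild-type replicate 1, 3 or 4 and with plain moderation. Maoa and Maob are also expressed by astrocytes, and the part of these cells in their values was not tested. Nor was it tested for Aldh2 and Adk, which were called higher.

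The 3 genes whose level over the 8 libraries was most like that of Drd2, by Pearson's r on log2(normalized count + 1), were Nos1 (r = 0.995), Pcsk2 (0.992) and Nlgn2 (0.991). All 3 were lower in Mbd2-/- libraries, by 0.28, 0.24 and 0.33 on the log2 scale. These are correlations over libraries of 2 genotypes, so a gene that differs between the genotypes with little spread within them has a high r, and they are given as a description. Nos1 was not called with the length trend removed (-0.13, adjusted p = 0.124), whereas Drd2 was (-1.20, adjusted p = 2.66e-04).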

How the data were processed

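The 8 genes and all gene lists were chosen with earlier results of these data known. Per the methods, the authors took out duplicate reads and used STAR with mm9 for alignment and DESeq2 for the genotype comparison. Tool versions, the counting tool and its strand setting are not given in the sources used here. The deposited signal is a normalized count (reads divided by the library's size factor), given by the authors per gene and library and as a mean of the 8 values. The authors also deposited log2 fold changes with their standard errors, the Wald score and p-values of their comparison, and none of these were used.

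Reads were recovered as whole multiples of the smallest value above 0 of a library, and 100% of them were whole with a tolerance of 0.01 reads. Depth limits the genes with few reads, and read counts cover counting error only. Genes with a mean of at least 10 normalized counts entered limma 3.58.1 (R 4.3.3; trend, robust; checked on simulated data) as log2(normalized count + 1), and a Benjamini-Hochberg adjusted p below 0.05 was a call. On the recovered reads edgeR 4.0.16 called 3172 genes, DESeq2 1.42.0 2970 and limma-voom 3198, against 3185 by limma on normalized counts. Fold changes on this scale understate the change of low genes. Single values had an exact two-sided permutation test. The libraries are labelled as separate samples, and p-values measure the spread between pools of 2 mice. Replicate numbers did not pair the libraries. Within a genotype, libraries differed by 1.97 to 15.4 times the counting variance, so that none was another library sequenced again. This cannot tell whether libraries were prepared from the same pool.

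Levels per kilobase used the longest GENCODE vM1 transcript, matched by symbol for 17893 of 19201 genes. RefSeq promoter windows were found for 5 of the 8 genes and not for Maob, Ppp1r1b and Adora2a. Named genes were the 8 genes, Mbd2, called genes and receptor or synthesis genes of each pathway list, the most abundant and called markers, the 3 genes nearest to Drd2, neighbouring genes and sex-linked genes. Not every gene that this rule selects is reported. An item of the dopamine breakdown list is not reported here.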

Additional observations from a re-analysis of the deposited data

How the results depend on the processing

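The log2 fold change of Drd2 kept its direction and its call under 11 other settings (TMM and upper quartile scaling, pseudocounts of 0.5 and 5, no filter, edgeR, DESeq2, limma-voom, plain moderation, the length trend removed and a replicate block) and was between -1.26 and -1.11 when each library was left out. The count of the genes called lower was 2 under all 11 settings and between 1 and 3 when a library was left out, with Drd5 lost without wild-type replicate 1 or 2 or Mbd2-/- replicate 2 and Pde10a added without Mbd2-/- replicate 4. The count called higher was 1 throughout. The difference in the log2 ratio of Drd2 to Adora2a lay between -1.05 and -0.77 when a library was left out, that to Ppp1r1b between -1.66 and -1.43 and that to Pde10a between -1.12 and -0.97. With the replicate block, the differences of the ratios stayed at -0.89 for Adora2a, -1.57 for Ppp1r1b and -1.04 for Pde10a, and p was 0.125 for each, the smallest that 4 pairs allow. Libraries with the same replicate number did not deviate together, with correlations of their deviations from the group means of -0.10, -0.06, 0.07 and 0.04, and the block moved the count of all called genes from 3185 to 3192. Without Mbd2-/- replicate 4, 5155 genes were called, and without each other library 2068 to 2937. Plain moderation called 2177 genes and the fit without the length trend 2063 of 14013. Few reads limit what can be said of Th, Adora2a, Drd3, Drd4 and Slc6a3. The size of the fall of Drd2 also rests on few reads, 208 in wild-type and 66 in Mbd2-/- libraries. Gpr52 was lower still in normalized counts.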
